A study of Homo sapiens with 24 samples.

Results

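The genes described here encode the protein folding machinery of the endoplasmic reticulum (ER) and the unfolded protein response that regulates it, as measured in A549 cells, an established human lung adenocarcinoma line. They are 34 genes, chosen by symbol from a list of known ER chaperones, oxidoreductases, stress sensors and degradation factors, out of 58302 genes in the table, and all 34 symbols were found there. The study asked how raised GPD1, the cytosolic glycerol-3-phosphate dehydrogenase, acts on cancer cells with and without metformin, a biguanide drug that inhibits respiratory complex I. All cells had received a lentivirus, carrying either GPD1 (GPD1 cells) or nothing (vector cells), and each kind was cultured without metformin or in medium with 10 mM of it. The 4 groups, each of 3 libraries of polyadenylated RNA, are called untreated or metformin after the kind of cell (vector untreated, GPD1 metformin and so on). The labels leave unstated which promoter drives GPD1, how many clones there were and how long treatment lasted. Whether the 3 replicates stand for separate cultures is not said in the labels, so p-values measure a spread that may be technical. A further 12 samples are of 786-O (renal carcinoma) and were not used.

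Proteins that enter the secretory pathway fold in the ER with the help of the HSP70 chaperone BiP (gene HSPA5), its J-domain cochaperones and nucleotide exchange factors, the lectin chaperones calnexin and calreticulin, and disulfide isomerases that are reoxidised by ERO1. When unfolded proteins accumulate, the sensors IRE1 (ERN1), PERK (EIF2AK3) and ATF6 are activated. IRE1 splices the XBP1 transcript, PERK phosphorylates the translation factor eIF2 alpha and thereby raises translation of ATF4, and ATF6 is cut in the Golgi to release a transcription factor. Their outputs raise chaperones and the factors of ER-associated degradation (ERAD), which returns misfolded proteins to the cytosol for the proteasome. The values here are gene totals, which show neither XBP1 splicing nor the phosphorylation or cleavage of a sensor.

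ATF6 with the factor NF-Y, and spliced XBP1, act through short promoter elements that were first described upstream of some of these genes. These were looked for on both strands of RefSeq promoter windows (GRCh38.p14, 250 bases before a transcription start and 50 after), which were given for 31 of the 34 genes (not for PDIA3, DERL1 and DERL3). The ER stress response element (ERSE) is CCAAT and, 9 bases on, CCACG, and it was found in 8 of the 31, namely HSPA5, XBP1, HSP90B1, CRELD2, CALR, CANX, PDIA6 and ERO1B, and in 0.0916% of all 27305 genes with a window (a gene may have several). ERSE-II (ATTGG and, 1 base on, CCACG) was found in HERPUD1, SDF2L1 and HYOU1, and in 0.0696% of all genes. CCACG alone, which both elements contain, was in 23 of the 31 and in 42.1% of all genes. The XBP1-type element UPRE (TGACGTGG or TGACGTGA, the first of which holds CCACG on its other strand) was in DNAJC10, HYOU1 and TXNDC5 and in 1.44% of genes. The C/EBP-ATF element that ATF4 and CHOP use (TGATGCAA or TGATGNAAT) was in HERPUD1 alone among the 31 and in 2.0% of genes. A match describes letters, not a bound site, and copies that differ from these letters were not counted. The 250 bases before the start are printed for 5 genes chosen by their response to metformin. HSPA5, XBP1 and HERPUD1 rose in both cell kinds, and CRELD2 fell in both. HSP90B1 passed the test in GPD1 cells and not in vector cells, but its 2 changes did not differ detectably. Capitals mark the ERSE, or in HERPUD1 the C/EBP-ATF element and then the ERSE-II. The C/EBP-ATF element, the CRELD2 ERSE and the second ERSE of HSP90B1 lie on the opposite strand and so read as reverse complements. The stretches lie at chr9:125241344-125241593 (minus strand, HSPA5), chr22:28800570-28800819 (minus strand, XBP1), chr16:56931892-56932141 (plus strand, HERPUD1), chr12:103930160-103930409 (plus strand, HSP90B1) and chr22:49918384-49918633 (plus strand, CRELD2).
HSPA5: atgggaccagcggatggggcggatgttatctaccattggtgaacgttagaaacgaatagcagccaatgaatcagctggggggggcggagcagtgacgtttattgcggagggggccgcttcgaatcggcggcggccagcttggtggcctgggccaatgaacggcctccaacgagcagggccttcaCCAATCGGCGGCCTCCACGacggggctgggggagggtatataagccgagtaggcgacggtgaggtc
XBP1: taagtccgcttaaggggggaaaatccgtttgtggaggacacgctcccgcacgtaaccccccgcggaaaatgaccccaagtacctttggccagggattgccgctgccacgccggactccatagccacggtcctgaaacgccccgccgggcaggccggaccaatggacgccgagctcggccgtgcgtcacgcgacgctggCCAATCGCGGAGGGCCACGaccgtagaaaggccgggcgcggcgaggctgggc
HERPUD1: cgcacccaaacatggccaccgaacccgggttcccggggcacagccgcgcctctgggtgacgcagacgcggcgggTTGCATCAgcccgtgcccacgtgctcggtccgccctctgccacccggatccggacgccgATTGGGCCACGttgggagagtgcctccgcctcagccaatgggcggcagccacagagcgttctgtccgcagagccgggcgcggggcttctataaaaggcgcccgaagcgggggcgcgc
HSP90B1: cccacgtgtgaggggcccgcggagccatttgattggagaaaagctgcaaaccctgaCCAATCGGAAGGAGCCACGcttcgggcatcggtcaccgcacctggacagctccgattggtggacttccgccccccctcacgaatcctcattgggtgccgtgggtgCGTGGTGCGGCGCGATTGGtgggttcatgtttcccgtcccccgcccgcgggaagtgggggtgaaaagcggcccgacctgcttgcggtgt
CRELD2: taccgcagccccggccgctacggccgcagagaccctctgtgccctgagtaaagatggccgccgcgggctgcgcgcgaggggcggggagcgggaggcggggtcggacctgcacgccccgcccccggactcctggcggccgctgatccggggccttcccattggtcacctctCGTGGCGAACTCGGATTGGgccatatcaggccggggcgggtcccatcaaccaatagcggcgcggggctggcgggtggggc
Counted from the start site, the ERSE spans positions -66 to -48 in HSPA5, -52 to -34 in XBP1 and, on the opposite strand, -80 to -62 in CRELD2. Of the other genes with an ERSE, PDIA6 rose 1.13-fold in vector cells and 1.16-fold in GPD1 cells. CALR, CANX and ERO1B passed the test with metformin in neither. Whether the element bears on the response was not tested. HSP90B1 holds 2 ERSEs, at -194 to -176 and at -89 to -71.

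Values are FPKM, fragments scaled by transcript length and library size, although the table names no unit and RPKM would look the same. From the steps between low values the depth was 13.3 to 18.0 M reads in a library, and at that depth the 33 genes other than DERL3 were covered by the equivalent of 155 (CRELD2) to 35985 (HSPA5) reads in a library. GPD1 stood at 0.0248 to 0.103 FPKM in the 6 vector libraries and at 13.3 to 16.8 in the 6 GPD1 libraries, as labelled. The epithelial keratins KRT8 and KRT18 stood at 64.4 to 149 FPKM in all 12 libraries. EPCAM (0.24 to 1.57) and CDH1 (2.26 to 9.29) were low, and the lung lineage genes SFTPC, SFTPB and NKX2-1 did not pass 0.0683, so the alveolar origin of A549 is not visible in them. Blood and endothelial markers (PTPRC, CD3E, PECAM1, VWF) did not pass 0.0299. Of stromal markers DCN was at 0 and COL1A1 at 2.24 to 5.41, and of kidney markers PAX8 did not pass 0.162, PAX2 stood at 0.457 to 2.48 and CDH6 at 0.20 to 1.96. Transcripts of the mitochondrial genome took 32.95% to 33.2% of FPKM in vector untreated and 30.2% to 32.3% in GPD1 untreated libraries, against 13.7% to 14.9% and 10.3% to 11.4% in the corresponding metformin libraries. FPKM is a share of the library, so this drop enters every metformin comparison. When library totals are taken without mitochondrial genes, the median log2 change of all tested genes with metformin moves from -0.10 to -0.39 in vector cells and from -0.20 to -0.48 in GPD1 cells. In bulk RNA, fewer cells of a kind and less RNA per cell cannot be told apart.

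The first comparison asks how metformin acted on these genes in vector cells and in GPD1 cells. DNAJB9, HSPA5, XBP1, ERN1 and HERPUD1 rose most, by 3.25-fold to 5.58-fold in vector cells and by 1.94-fold to 3.57-fold in GPD1 cells. The disulfide isomerases that passed the test changed by at most 1.67-fold, and the lectin chaperones did not pass it. CRELD2, ATF6 and SEL1L fell most in vector cells, and ERO1A, EIF2AK3 and CRELD2 in GPD1 cells. Of the 33 genes tested, 16 rose and 9 fell in vector cells, where 31.3% of all 12607 tested genes rose and 43.3% fell. In GPD1 cells 13 rose and 12 fell, against 26.1% and 48% of all tested genes. The median log2 change of the 33 was 0.18 in vector cells and 0.11 in GPD1 cells, which is 0.28 and 0.30 above the median of all tested genes (-0.10 and -0.20). With totals taken without mitochondrial genes the split turned to 9 higher and 16 lower in vector cells and to 7 and 18 in GPD1 cells, and with median-ratio scaling it was 18 and 8, and 17 and 5. All metformin libraries lay above all untreated ones for 16 genes and below them for 9 in vector cells, and for 15 and 11 genes in GPD1 cells. Of all tested genes 32.4% and 44.2% separated so in vector cells and 27.5% and 49.6% in GPD1 cells. Calls here are from limma on log2(FPKM + 1) with Benjamini-Hochberg adjustment over all tested genes, at 0.05. Fold values are ratios of mean FPKM, and log2 changes are on the log2(FPKM + 1) scale, which understates the change of genes at low levels. DERL3, an ERAD channel protein, was at 0 to 0.022 FPKM in every library, 0 to 1 read, and was not tested.

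**Figure D1:**
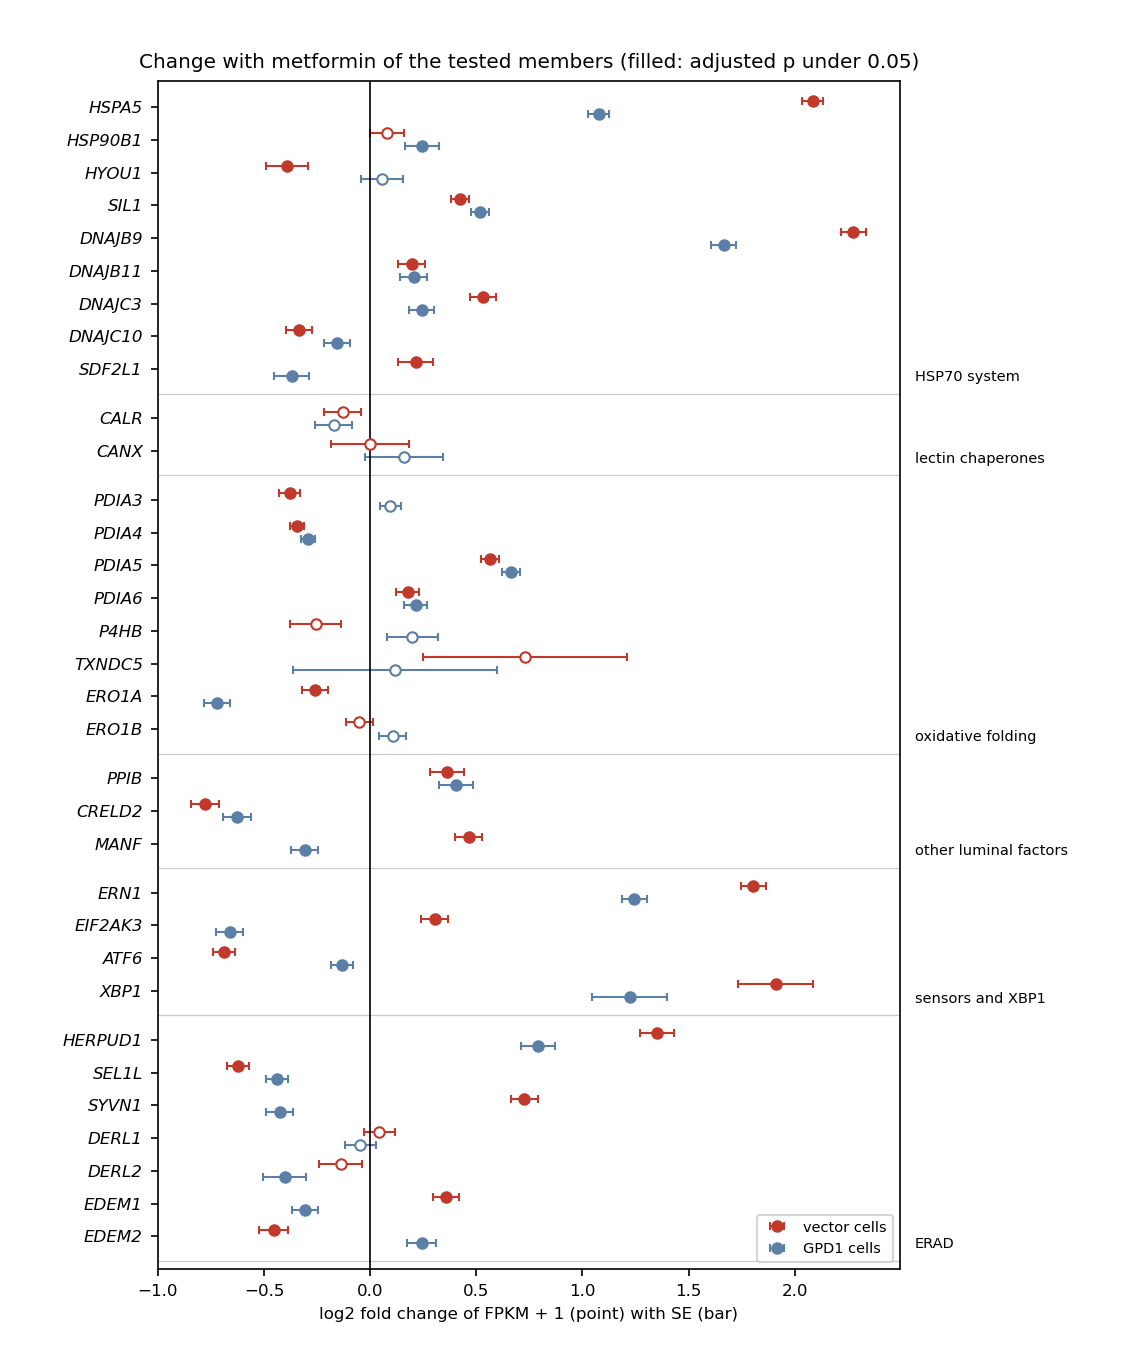
Log2 fold change of FPKM + 1 with metformin for the 33 tested genes, in vector cells (red) and GPD1 cells (blue), with the standard error as a bar and filled points for an adjusted p under 0.05, grouped by role. HSPA5, DNAJB9, ERN1, XBP1 and HERPUD1 lie far to the right in both cell kinds, and SDF2L1, MANF, EIF2AK3, SYVN1 and EDEM1 lie on opposite sides of 0.

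The HSP70 system, which holds 9 of the 34 genes, had 6 rises and 2 falls in each kind of cell, but not of the same genes. SDF2L1 rose in vector cells and fell in GPD1 cells, HYOU1 fell in vector cells only and HSP90B1 rose in GPD1 cells only. Of all tested genes 31.3% rose and 43.3% fell in vector cells, and 26.1% and 48% in GPD1 cells. HSPA5, the master chaperone of the ER and the repressor of its sensors, stood at 124, 124 and 119 FPKM in the vector untreated libraries and at 493, 512 and 563 after metformin. In GPD1 cells it stood at 123, 121 and 125 without metformin and at 262, 264 and 254 with it. The untreated libraries of both kinds thus lie between 119 and 125, every metformin library lies above them, and the GPD1 metformin libraries lie between the untreated and the vector metformin libraries. The rise was 4.27-fold in vector cells (log2 change 2.08, SE 0.05, adjusted p = 1.02e-10) and 2.12-fold in GPD1 cells (1.08, SE 0.05, adjusted p = 9.62e-09). HSPA5 had the highest level of the 34 genes in every metformin library. The summed FPKM of the 34 ran from 900.0 to 971 in vector untreated, 1339 to 1472 in vector metformin, 946 to 983 in GPD1 untreated and 1170 to 1191 in GPD1 metformin libraries. As a share of FPKM outside the mitochondrial genome the sum was 0.458% to 0.495%, 0.568% to 0.607%, 0.484% to 0.491% and 0.456% to 0.458% in that order. On this scale every GPD1 metformin library lay below every GPD1 untreated one, and none lay above the vector untreated range. The sum includes HSPA5, whose own mean went from 122 to 523 FPKM in vector cells and from 123 to 260 in GPD1 cells. The sum leaves out the readthrough gene BLOC1S5-TXNDC5, described below. That gene was listed at 48.8 and 64.7 FPKM in vector untreated replicates 2 and 3 and at 38.7 in vector metformin replicate 2.

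DNAJB9 (ERdj4), a J-domain cochaperone that recruits BiP to IRE1, had the largest change of the 33. Its level was 5.02, 5.11 and 5.54 FPKM in vector untreated, 28.6, 28.9 and 29.9 in vector metformin, 5.15, 5.79 and 5.43 in GPD1 untreated and 19.7, 20.8 and 18.0 in GPD1 metformin libraries. Both metformin groups lie clear of the untreated ones and of each other. It rose 5.58-fold in vector cells (log2 change 2.28, SE 0.06, adjusted p = 2.15e-10) and 3.57-fold in GPD1 cells (1.67, SE 0.06, adjusted p = 2.5e-09). The other J-domain proteins moved far less. DNAJC3 (p58IPK), which restrains PERK, rose from 3.54 ± 0.16 to 5.56 ± 0.20 FPKM (SD, n = 3) in vector cells and from 5.54 ± 0.28 to 6.74 ± 0.56 in GPD1 cells, where the change turned to -0.0761 (adjusted p = 0.294) with totals without mitochondrial genes. DNAJB11 (ERdj3) rose 1.17-fold in both, calls that were lost without vector metformin replicate 1 or 2, or without GPD1 metformin replicate 2 or GPD1 untreated replicate 1 (adjusted p 0.0542 to 0.0665), and that turned to -0.12 in both with totals without mitochondrial genes. DNAJC10 (ERdj5), a reductase that aids ERAD, fell 1.34-fold in vector cells and 1.14-fold in GPD1 cells. The DNAJC10 call in GPD1 cells was lost or turned in 12 of 20 alternative settings and in those groups the libraries overlap. SIL1, the nucleotide exchange factor of BiP, rose 1.41-fold and 1.51-fold and was called in all 20 alternatives in both cell kinds. HYOU1 (GRP170), the other exchange factor, fell in vector cells from 6.44, 7.26 and 7.59 to 4.73, 5.23 and 5.53 FPKM (adjusted p = 0.00383) and in GPD1 cells was 5.56 ± 0.94 without and 5.77 ± 0.14 with metformin (adjusted p = 0.632).

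HSP90B1 (GRP94), the HSP90 chaperone of the ER, was abundant and close to level. It stood at 97.3, 91.4 and 101 FPKM in vector untreated, 95.0, 102 and 110 in vector metformin, 106, 92.0 and 89.9 in GPD1 untreated and 122, 114 and 105 in GPD1 metformin libraries. Every group overlaps another. The 1.19-fold rise in GPD1 cells passed the test (adjusted p = 0.0164) but not without GPD1 metformin replicate 1 or either of GPD1 untreated replicates 2 and 3 (adjusted p up to 0.0671), and the change in vector cells did not pass (log2 change 0.08, SE 0.08, adjusted p = 0.382). The change in GPD1 cells minus that in vector cells was 0.17 (SE 0.11) and did not pass (limma, adjusted p = 0.256). With totals without mitochondrial genes the HSP90B1 change was -0.28 in vector cells and -0.12 in GPD1 cells. HSPA5, HSP90B1 and PDIA3 have processed pseudogenes, and how reads on such copies were counted is not stated. SDF2L1, a BiP cofactor, is described with the genes of opposite calls.

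**Figure D2:**
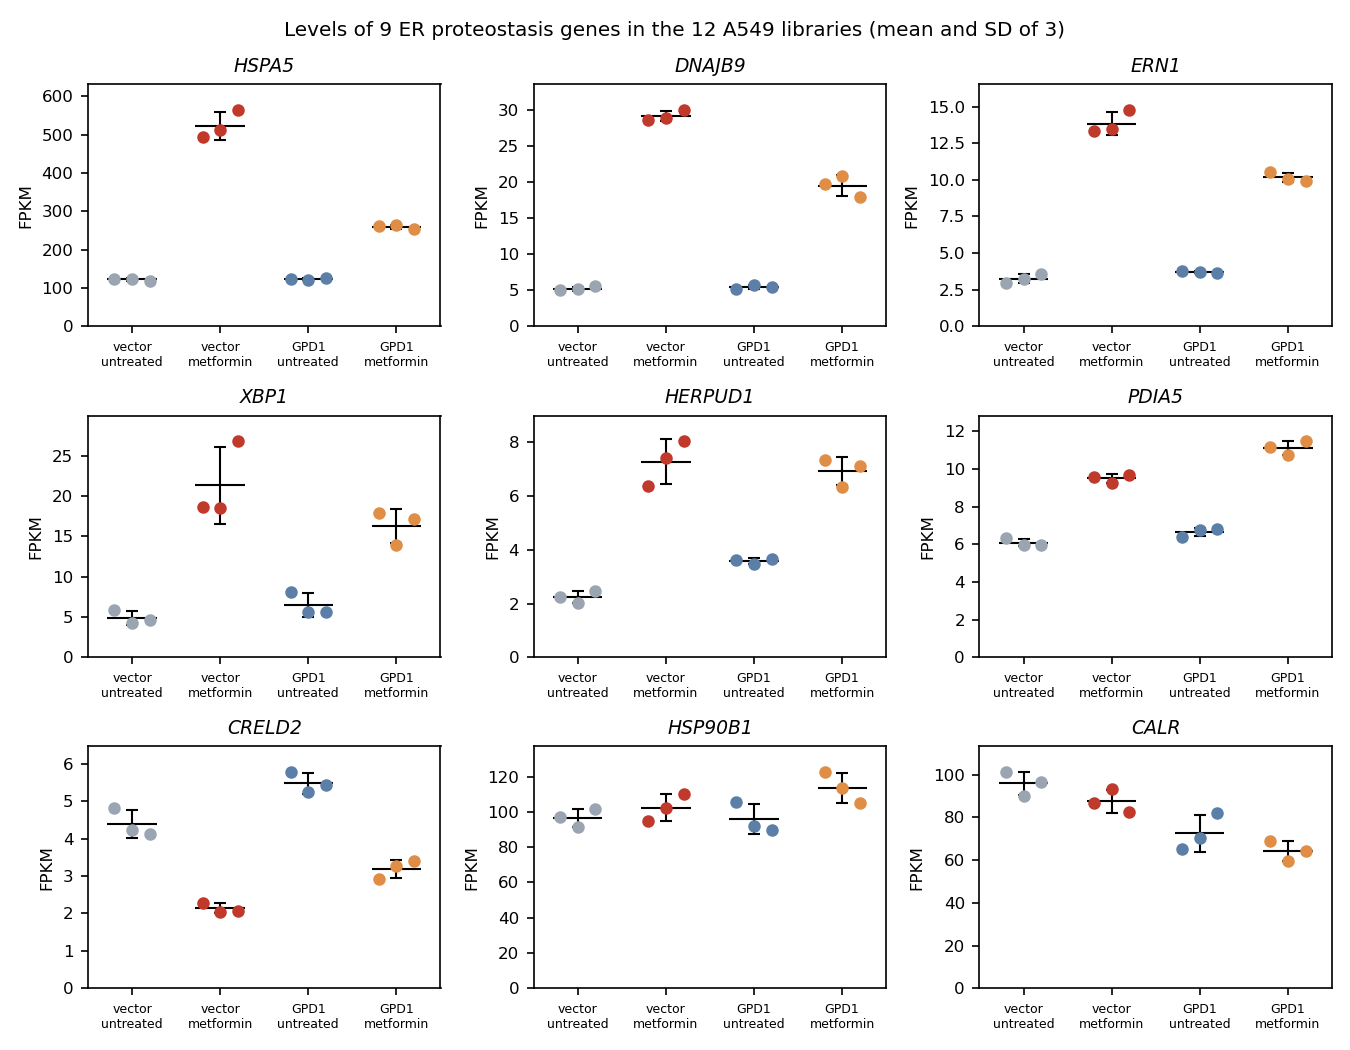
FPKM of 9 genes in each of the 12 libraries, by group, with the mean as a horizontal line and the SD of 3 libraries as a bar; each axis starts at 0. HSPA5, DNAJB9, ERN1 and XBP1 rise with metformin in both cell kinds and stand higher in vector metformin than in GPD1 metformin libraries, CRELD2 falls in both, and CALR is lower in GPD1 cells.

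The lectin chaperones, which hold glycoproteins in the folding cycle, did not pass the test with metformin in either cell kind, although some alternatives gave calls. Calreticulin (CALR) stood at 101, 90.0 and 96.6 FPKM in vector untreated, 86.9, 93.1 and 82.6 in vector metformin, 65.2, 70.3 and 82.2 in GPD1 untreated and 68.7, 59.4 and 64.2 in GPD1 metformin libraries. Metformin groups overlap their controls within each cell kind (log2 changes -0.13, SE 0.09, and -0.17, SE 0.09), whereas each GPD1 library lies below every vector library of the same treatment. With totals without mitochondrial genes both CALR changes passed (-0.49 and -0.54), and that in GPD1 cells also passed without GPD1 untreated replicate 1 (-0.24) and with the length trend removed (-0.22). Calnexin (CANX) stood between 61.1 and 79.5 FPKM in 11 libraries and at 41.9 in vector metformin replicate 1. With that library its change in vector cells was -0.00 (SE 0.18, adjusted p = 0.996), and without it the change was 0.28 and passed the test (adjusted p = 0.00185). The CANX change in GPD1 cells (0.16) passed without the same library and when only the groups compared were fitted (adjusted p = 0.0226 and 0.0327).

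Enzymes of oxidative folding moved in both directions. PDIA5, a disulfide isomerase that is known to act on ATF6, rose from 6.32, 5.97 and 5.98 to 9.57, 9.24 and 9.67 FPKM in vector cells and from 6.38, 6.78 and 6.80 to 11.2, 10.7 and 11.5 in GPD1 cells. Its metformin libraries are all above its untreated ones, by 1.56-fold (log2 change 0.57, SE 0.04, adjusted p = 4.81e-07) and 1.67-fold (0.66, SE 0.04, adjusted p = 1.56e-07). PDIA6 rose 1.13-fold and 1.16-fold, but its sign turned with totals without mitochondrial genes (-0.18 and -0.15). PDIA4 (ERp72) fell from 101 ± 1.24 to 79.3 ± 0.87 FPKM in vector cells and from 102 ± 2.17 to 82.9 ± 1.68 in GPD1 cells, where the call was lost with median-ratio factors (-0.0427, adjusted p = 0.302). PDIA3 (ERp57), the partner of the lectin chaperones, fell in vector cells from 54.4, 54.9 and 54.3 to 41.3, 41.0 and 42.8 FPKM, and was 51.3 ± 3.81 and 54.8 ± 1.03 in GPD1 cells (adjusted p = 0.0997). ERO1A, the oxidase that recharges PDI, stood at 10.5, 9.84 and 11.4 FPKM in vector untreated, 9.30, 8.37 and 8.31 in vector metformin, 10.6, 10.0 and 10.2 in GPD1 untreated and 5.94, 6.13 and 5.45 in GPD1 metformin libraries. Its fall was 1.22-fold in vector cells and 1.76-fold in GPD1 cells, and it was called in all 20 alternatives in GPD1 cells and in 19 in vector cells. ERO1B did not pass the test in either (log2 changes -0.05, SE 0.06, and 0.11, SE 0.06).

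P4HB varied within groups, and so did the listed values of TXNDC5, whose exons a second entry shares. P4HB, the founding disulfide isomerase, stood at 30.9, 27.3 and 41.9 FPKM in vector untreated and at 26.5, 26.8 and 28.8 in vector metformin libraries, and in GPD1 cells at 37.3, 39.7 and 36.6 without and 41.2, 45.8 and 43.9 with metformin. Neither metformin change passed (adjusted p = 0.0766 and 0.16). The fall in vector cells passed in 2 of 20 alternatives, among them that without vector untreated replicate 2 (-0.39, adjusted p = 0.00893). The change in GPD1 cells passed in 4 of 20 (lowest adjusted p = 0.00604). The change in GPD1 cells minus that in vector cells was 0.46 (adjusted p = 0.0503) and passed in 5 of 19. TXNDC5 was listed at 56.6, 16.8 and 13.0 FPKM in vector untreated, 55.2, 20.7 and 52.6 in vector metformin, and 49.0 to 54.7 in the 6 GPD1 libraries. In the 3 low libraries the readthrough gene BLOC1S5-TXNDC5, which shares its exons, was listed at 48.8, 64.7 and 38.7 FPKM, and it was listed at 0 in the other 9. The sum of both entries ran from 52.6 to 77.7 in the vector libraries, and the low TXNDC5 values and the readthrough values stand in the same 3 libraries. The tests used the TXNDC5 entry alone and not this sum.

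Of the other luminal factors, PPIB (cyclophilin B), a prolyl isomerase, rose 1.29-fold and 1.32-fold, from 105 ± 5.77 to 136 ± 4.49 FPKM in vector cells and from 115 ± 15.3 to 151 ± 3.69 in GPD1 cells. Neither rise passed with totals without mitochondrial genes (adjusted p = 0.959 and 0.685). CRELD2, a secreted folding factor commonly used as a reporter of ER stress, went the other way. It stood at 4.80, 4.22 and 4.11 FPKM in vector untreated, 2.29, 2.05 and 2.07 in vector metformin, 5.77, 5.23 and 5.42 in GPD1 untreated and 2.92, 3.26 and 3.39 in GPD1 metformin libraries. All metformin libraries lie below all untreated ones. Its fall was 2.05-fold in vector cells (log2 change -0.78, SE 0.07, adjusted p = 1.13e-06) and 1.71-fold in GPD1 cells (-0.63, SE 0.07, adjusted p = 7.06e-06), and it was called in all 20 alternatives in both. The ERSE of its promoter, shown above, was found with the same search pattern as those of HSPA5 and XBP1, which fixes its letters and spacing. It lies on the opposite strand, unlike those 2, and its part in the fall was not tested.

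Among the sensors, ERN1 (IRE1 alpha), the kinase and endonuclease that splices XBP1, stood at 2.95, 3.24 and 3.57 FPKM in vector untreated, 13.3, 13.5 and 14.7 in vector metformin, 3.78, 3.69 and 3.66 in GPD1 untreated and 10.5, 10.1 and 9.91 in GPD1 metformin libraries. It rose 4.25-fold in vector cells (log2 change 1.804, SE 0.06, adjusted p = 7.88e-10) and 2.74-fold in GPD1 cells (1.24, SE 0.06, adjusted p = 1.47e-08). XBP1, its substrate, stood at 5.91, 4.19 and 4.58 FPKM in vector untreated and 18.6, 18.5 and 26.8 in vector metformin libraries. In GPD1 cells it stood at 8.14, 5.64 and 5.57 without and 17.9, 13.9 and 17.1 with metformin. The metformin libraries are all above the untreated ones, although XBP1 varied more within groups than ERN1 did, with 1 high library in 3 of the 4 groups. It rose 4.35-fold (log2 change 1.91, SE 0.18, adjusted p = 2.31e-06) and 2.52-fold (1.22, SE 0.18, adjusted p = 8.71e-05).

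ATF6, the sensor that is itself a transcription factor precursor, fell in vector cells, from 7.75, 8.30 and 8.56 to 5.05, 4.73 and 4.35 FPKM (1.74-fold, log2 change -0.69, SE 0.05, adjusted p = 4.37e-07). In GPD1 cells it stood at 8.41, 8.09 and 8.24 FPKM without and 7.40, 7.51 and 7.37 with metformin, a 1.11-fold fall (adjusted p = 0.0374) whose call was lost or turned in 11 of 20 alternatives, among them those without any of the 6 GPD1 libraries. Thus ERN1 rose and ATF6 fell in the same vector libraries. EIF2AK3 (PERK), the third, rose in vector cells and fell in GPD1 cells.

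In the ERAD group, HERPUD1, which assembles the HRD1 ligase complex at the ER membrane, stood at 2.23, 2.03 and 2.45 FPKM in vector untreated, 6.39, 7.40 and 8.03 in vector metformin, 3.62, 3.47 and 3.64 in GPD1 untreated and 7.33, 6.34 and 7.13 in GPD1 metformin libraries. Both metformin groups are alike in level and overlap, and the untreated groups differ. It rose 3.25-fold (log2 change 1.35, SE 0.08, adjusted p = 6.36e-08) and 1.94-fold (0.79, SE 0.08, adjusted p = 5.1e-06). SEL1L, the adaptor of the same ligase, fell from 17.0 ± 0.95 to 10.7 ± 0.58 FPKM in vector cells and from 17.8 ± 0.71 to 12.8 ± 0.13 in GPD1 cells, called in all 20 alternatives in both. DERL2, a channel component, fell 1.48-fold in GPD1 cells (adjusted p = 0.0041, but 0.0594 with median-ratio factors) and stood at 3.43 ± 0.16 and 3.04 ± 0.38 FPKM in vector cells (adjusted p = 0.237). DERL1, its paralogue, stood at 4.53 to 5.78 FPKM in all 12 libraries and passed in neither.

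Metformin calls went in opposite directions in the 2 kinds of cell for 6 of the 33 genes, against 6.34% of all tested genes. Of the 6, 5 rose in vector cells and fell in GPD1 cells (4.78% of all tested genes) and 1 did the reverse (1.55%). SYVN1 (HRD1), the ubiquitin ligase at the centre of ERAD, stood at 2.92, 2.89 and 3.25 FPKM in vector untreated, 6.04, 5.53 and 5.39 in vector metformin, 3.43, 3.35 and 3.78 in GPD1 untreated and 2.49, 2.40 and 2.19 in GPD1 metformin libraries. The vector metformin libraries are the highest of the 12 and the GPD1 metformin libraries the lowest. It rose 1.87-fold in vector cells (adjusted p = 1.14e-06) and fell 1.49-fold in GPD1 cells (adjusted p = 8.74e-05), and both calls held in all 20 alternatives, the only one of the 6 for which they did.

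EIF2AK3, the PERK kinase, stood at 3.82, 3.39 and 3.71 FPKM in vector untreated, 5.28, 4.56 and 4.36 in vector metformin, 4.61, 4.38 and 4.71 in GPD1 untreated and 2.57, 2.55 and 2.44 in GPD1 metformin libraries. It rose 1.30-fold in vector cells and fell 1.81-fold in GPD1 cells, and only the rise failed under an alternative (totals without mitochondrial genes, adjusted p = 0.845). EDEM1, a mannosidase-like protein that hands glycoproteins to ERAD, stood at 8.57, 8.92 and 8.92 FPKM in vector untreated, 11.4, 11.0 and 12.4 in vector metformin, 6.16, 6.27 and 6.18 in GPD1 untreated and 5.14, 5.09 and 4.29 in GPD1 metformin libraries, so all GPD1 libraries lie below all vector ones. MANF, a secreted neurotrophic factor that binds BiP, rose 1.42-fold from 9.45 ± 0.97 FPKM in vector cells and fell 1.27-fold from 11.0 ± 0.03 in GPD1 cells. SDF2L1 rose 1.17-fold from 15.5 ± 1.31 in vector cells, a call lost in 7 alternatives, among them those without vector metformin replicate 2 or 3 or vector untreated replicate 2 or 3, and turned in 1, and fell 1.32-fold from 16.4 ± 0.99 in GPD1 cells. The rises of EDEM1 and MANF were lost with totals without mitochondrial genes (adjusted p = 0.646 and 0.0879). The falls of EDEM1, MANF and SDF2L1 were lost with median-ratio factors (adjusted p = 0.206, 0.289 and 0.175).

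EDEM2, which starts mannose trimming for ERAD, showed the opposite pair. It stood at 26.6, 26.5 and 30.8 FPKM in vector untreated and 19.2, 21.7 and 19.4 in vector metformin libraries. GPD1 untreated libraries gave 27.6, 25.7 and 26.6, and GPD1 metformin libraries 31.7, 30.5 and 32.8. It fell 1.39-fold in vector cells and rose 1.19-fold in GPD1 cells. Which genes are called in opposite directions depends on scaling. With median-ratio factors EIF2AK3 and SYVN1 rose in vector and fell in GPD1 cells, and HYOU1, PDIA3 and EDEM2 did the reverse. With totals without mitochondrial genes SYVN1 alone was called so, and with a trend on transcript length removed MANF, EIF2AK3, SYVN1 and EDEM1 in the one sense and PDIA3 in the other.

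**Figure D3:**
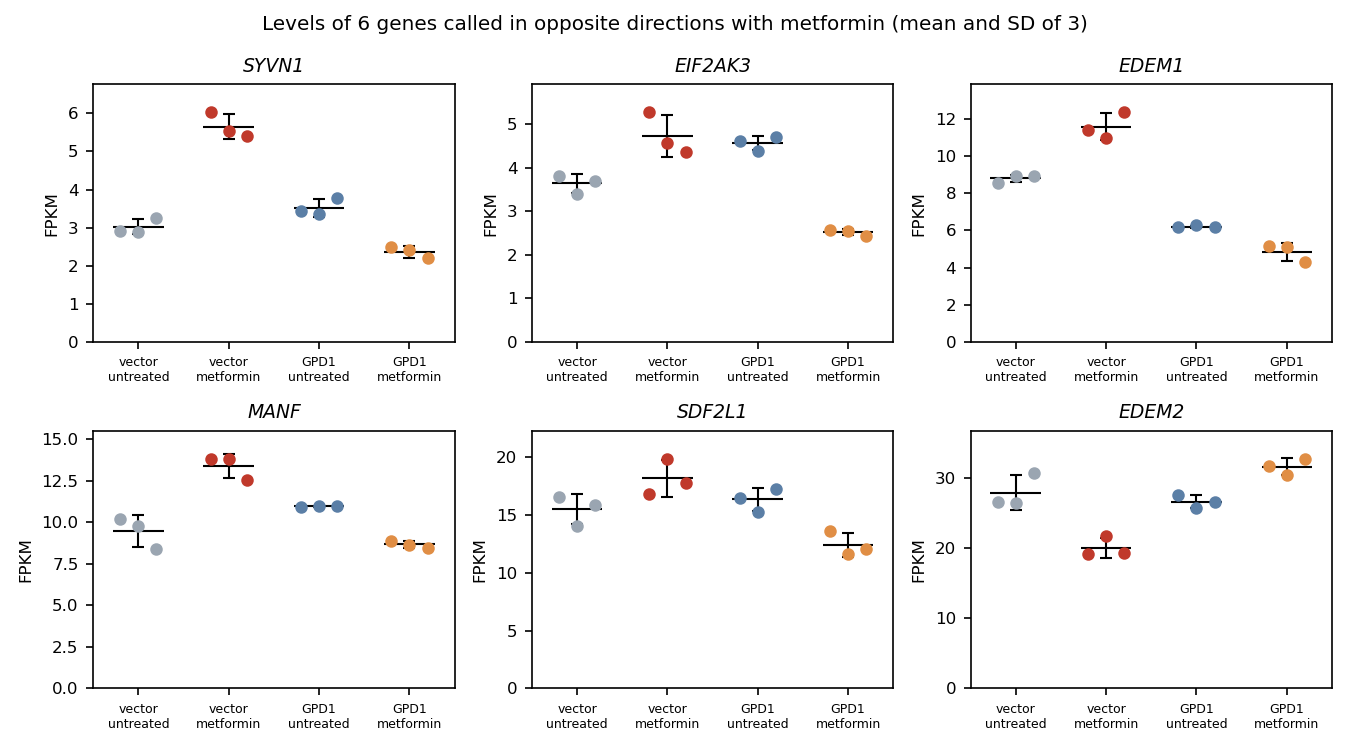
FPKM of the 6 genes with opposite metformin calls in the 2 kinds of cell, in each of the 12 libraries by group, with the mean as a line and the SD of 3 as a bar; each axis starts at 0. By group mean, SYVN1, EIF2AK3, EDEM1, MANF and SDF2L1 are highest in vector metformin and lowest in GPD1 metformin libraries, and EDEM2 is lowest in vector metformin.

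The second comparison sets GPD1 cells against vector cells at the same treatment. In untreated cells the differences were few: 5 of the 33 genes were higher and 3 lower in GPD1 cells, where 9.99% of all tested genes were higher and 11.3% lower, and the median log2 difference was 0.07 (all tested genes -0.01). All GPD1 libraries lay above all vector ones for 9 genes and below them for 3 (18.8% and 22.7% of all tested genes). DNAJC3 was 1.57-fold higher (3.72, 3.44 and 3.44 against 5.25, 5.82 and 5.54 FPKM, adjusted p = 0.000124) and HERPUD1 1.60-fold higher (adjusted p = 0.00123). Their libraries did not overlap between groups, and both were called in all 20 alternatives. CRELD2, EIF2AK3 and ERO1B were 1.24-fold to 1.25-fold higher. The CRELD2 call was lost without GPD1 untreated replicate 1 or vector untreated replicate 2 or 3 (adjusted p 0.0558 to 0.0608), that of ERO1B without GPD1 untreated replicate 3 or vector untreated replicate 2 or 3 (0.0602 to 0.0636), and that of EIF2AK3 without GPD1 untreated replicate 3 or vector untreated replicate 2 (0.0518 to 0.0569). EDEM1 was 1.42-fold lower and CALR 1.32-fold lower in GPD1 cells, called in all 20 alternatives, and HYOU1 was 1.28-fold lower, a call lost in 14 of them (adjusted p 0.05 to 0.139). P4HB did not pass, except without vector untreated replicate 3 (0.37, adjusted p = 0.00531). Without vector untreated replicate 2 the number higher fell to 2, and without GPD1 untreated replicate 3 to 3. HSPA5, DNAJB9, ERN1 and XBP1, which rose most with metformin, did not pass here, with log2 differences of 0.01 (SE 0.05), 0.05 (SE 0.06), 0.15 (SE 0.06) and 0.33 (SE 0.18).

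With metformin, 10 were higher and 11 lower in GPD1 than in vector cells, against 25% and 35% of all tested genes. The libraries separated upward for 13 and downward for 12 (27.7% and 37.1% of all tested genes). With upper-quartile factors the split was 17 and 10, and with median-ratio factors 16 and 11. HSPA5 was 2.01-fold lower (log2 difference -1.003, SE 0.05, adjusted p = 4.12e-08), DNAJB9 1.49-fold lower (-0.56, SE 0.06) and ERN1 1.36-fold lower (-0.41, SE 0.06), and their GPD1 and vector libraries did not overlap. SYVN1 and EDEM1 were each 2.39-fold lower (-0.98, SE 0.06, and -1.11, SE 0.06), EIF2AK3 1.88-fold, MANF 1.55-fold, ERO1A 1.48-fold, SDF2L1 1.46-fold, DERL2 1.40-fold and CALR 1.36-fold lower. The DERL2 call was lost without GPD1 metformin replicate 3 or vector metformin replicate 1 (adjusted p 0.0511 to 0.052, upper-quartile factors included). Higher in GPD1 cells were P4HB (1.60-fold, adjusted p = 0.000802), ATF6 and EDEM2 (each 1.58-fold), CRELD2 (1.49-fold), ERO1B (1.42-fold), PDIA3 and DNAJC10 (each 1.32-fold), DNAJC3, SEL1L and PDIA5 (1.17-fold to 1.21-fold). XBP1 was 1.31-fold lower with libraries that did not overlap but did not pass (-0.36, SE 0.18, adjusted p = 0.108), and HERPUD1 did not differ detectably (-0.06, SE 0.08, 95% interval -0.235 to 0.12). The metformin and GPD1 comparisons share libraries pairwise and are not independent of each other.

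The third comparison is the interaction, the metformin change in GPD1 cells minus that in vector cells, which tests whether the changes differ. It was negative and called for 12 of the 33 genes and positive for 4, against 26.8% and 19.1% of all tested genes. In either direction this is 16 of the 33, against 45.9% of all tested genes. The 12 were SYVN1 (-1.15, SE 0.09, adjusted p = 3.61e-06), HSPA5 (-1.01, SE 0.07, adjusted p = 1.76e-06), EIF2AK3 (-0.96), MANF (-0.77), XBP1 (-0.69), EDEM1 (-0.66), DNAJB9 (-0.61), SDF2L1 (-0.59), ERN1 (-0.56), HERPUD1 (-0.56), ERO1A (-0.46) and DNAJC3 (-0.29). The DNAJC3 call was lost with median-ratio (-0.196) and upper-quartile factors (-0.166, adjusted p 0.0767 to 0.13). The steep risers HSPA5, DNAJB9, ERN1, XBP1 and HERPUD1 are all among the genes whose metformin change was smaller in GPD1 cells. They were picked by the size of their rise, and picking by the rise in vector cells favours a negative interaction. HERPUD1 was higher in untreated GPD1 than vector cells (0.50, adjusted p = 0.00123) and did not differ detectably with metformin (-0.06, adjusted p = 0.559). For XBP1 the call (adjusted p = 0.0448) was lost in 9 of 19 alternatives, among them those without any of GPD1 metformin replicates 2 and 3, GPD1 untreated replicate 1, vector metformin replicate 3 and vector untreated replicates 2 and 3 (adjusted p 0.061 to 0.109). The 4 positive ones were EDEM2 (0.70), ATF6 (0.56), PDIA3 (0.48) and HYOU1 (0.45, lost without vector metformin replicate 1 or vector untreated replicate 3), each of which fell in vector cells. With upper-quartile factors 13 were positive and 10 negative, and with median-ratio factors 11 and 10. The 17 others did not pass, among them SIL1 (0.09, SE 0.06), PDIA5 (0.10, SE 0.06), PPIB (0.04, SE 0.11) and CRELD2 (0.15, SE 0.09), whose changes with metformin had the same sign in both kinds of cell.

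Lists of other genes of the pathway put these values in context. With metformin 31.3% of all tested genes rose and 43.3% fell in vector cells, and 26.1% rose and 48% fell in GPD1 cells. Of 9 tested outputs of the PERK branch, 9 rose in vector cells with a median log2 change of 1.55, and 7 rose and 1 fell in GPD1 cells (median 1.73). Gene by gene, the interaction was positive for 2 and negative for 5 (median -0.41), against 19.1% and 26.8% of all tested genes. Under metformin, 1 was higher and 5 were lower in GPD1 than in vector cells, against 25% and 35% of all tested genes. DDIT3 (CHOP), the stress factor that ATF4 induces, rose from 1.72 ± 0.06 to 33.9 ± 2.07 FPKM in vector cells and from 1.41 ± 0.18 to 15.8 ± 3.63 in GPD1 cells. CEBPB, its dimerisation partner, rose 6.27-fold and 4.71-fold. PPP1R15A (GADD34), which targets a phosphatase to eIF2 alpha, rose 7.52-fold and 15.0-fold, with a positive interaction (1.01, SE 0.12). SESN2, a stress-induced regulator of mTORC1, rose from 7.34 ± 0.16 to 14.3 ± 0.84 in vector cells and fell from 6.33 ± 0.70 to 1.74 ± 0.17 in GPD1 cells. TRIB3, a pseudokinase induced by CHOP, rose 3.39-fold in vector cells and was 12.8 ± 0.63 without and 14.5 ± 0.71 with metformin in GPD1 cells (adjusted p = 0.358). As background, ATF4 and its targets also respond to eIF2 alpha kinases that lie outside the ER.

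Among 19 tested transducers and regulators outside the 34 genes, 9 rose and 7 fell in vector cells and 7 rose and 6 fell in GPD1 cells. The shares of all tested genes were 31.3% and 43.3%, and 26.1% and 48%. PPP1R15B, the constitutive partner of the eIF2 alpha phosphatase, rose from 21.6 ± 1.01 to 124 ± 3.32 FPKM in vector cells and from 21.9 ± 0.30 to 45.5 ± 1.26 in GPD1 cells (interaction -1.44, SE 0.06). TRAF2, an adaptor that binds active IRE1, rose 2.48-fold and 1.23-fold, the second in 3 of 4 other scalings and at -0.06 in the fourth. BAK1, a pore-forming factor of apoptosis, rose 2.47-fold and 2.11-fold. NFYA, a subunit of the NF-Y factor that binds the CCAAT of the ERSE, rose from 8.996 ± 0.44 to 18.4 ± 0.46 FPKM in vector cells and fell from 8.67 ± 0.17 to 6.15 ± 0.28 in GPD1 cells. ATF6B, the paralogue of ATF6, fell 1.93-fold in vector cells and 1.42-fold in GPD1 cells, the second called in 2 of 4 other scalings.

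Of 26 further ERAD genes 10 rose and 10 fell in vector cells, and 7 rose and 11 fell in GPD1 cells. For this list and the translocon list below, the shares of all tested genes were 31.3% and 43.3%, and 26.1% and 48%. VCP, the ATPase that extracts substrates from the membrane, fell from 65.5 ± 1.18 to 41.9 ± 2.03 FPKM in vector cells and from 62.0 ± 0.79 to 21.2 ± 1.04 in GPD1 cells. Its cofactor NPLOC4 fell 1.42-fold and 3.25-fold (interaction -1.05, SE 0.06), whereas UFD1, the other cofactor, rose 1.73-fold in vector cells. SELENOS, which recruits VCP to the ER, rose 2.39-fold and 1.35-fold, the second not with totals without mitochondrial genes. The translocon list (25 genes) had 8 rises and 8 falls in vector cells and 9 and 6 in GPD1 cells. SPCS3, a signal peptidase subunit, fell 2.53-fold and 2.28-fold, and SRPRA, the receptor of the signal recognition particle, rose 2.13-fold in vector cells and did not pass in GPD1 cells (adjusted p = 0.41).

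For N-glycosylation and glycan quality control, 9 of 31 rose and 15 fell in vector cells, and 13 rose and 10 fell in GPD1 cells. UGGT1, the folding sensor that returns glycoproteins to the lectin chaperones, fell from 13.6 ± 0.19 to 5.27 ± 0.25 FPKM in vector cells and from 14.7 ± 0.47 to 6.39 ± 0.19 in GPD1 cells. RPN2, a subunit of the oligosaccharyltransferase, fell from 76.3 ± 0.64 to 48.3 ± 2.097 in vector cells and stood at 73.8 ± 1.24 and 78.5 ± 2.04 in GPD1 cells (interaction 0.74, SE 0.05). Among 28 other disulfide and prolyl folding enzymes 8 rose and 11 fell, and 12 rose and 10 fell. For both of these lists the shares of all tested genes were 31.3% and 43.3%, and 26.1% and 48%. The membrane-bound thioredoxin TMX1 fell 3.17-fold and 2.30-fold, and ERP29, a PDI-like chaperone, rose 1.58-fold and 2.04-fold.

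In the list for transport from ER to Golgi, 13 of 22 rose and 3 fell in vector cells, against 31.3% and 43.3% of all tested genes. In GPD1 cells 11 rose and 8 fell, against 26.1% and 48%. The interaction was negative for 10 and positive for 0 (median -0.22), against 26.8% and 19.1% of all tested genes. With median-ratio or upper-quartile factors it was negative for 7 and positive for 1. At an unadjusted p under 0.05 in the same limma fit, 1 of the 22 was positive and 11 were negative. Interactions in the other lists leaned both ways. By adjusted p they were positive for 13 and negative for 3 of the N-glycosylation genes (median 0.20). For the other folding enzymes these counts were 9 and 2 (median 0.19), and for the translocon 8 and 5. For ERAD they were 4 and 9, for the regulators 3 and 7, and for the PERK outputs 2 and 5. SEC24A, a cargo-binding coat subunit, rose from 4.22 ± 0.15 to 11.7 ± 1.20 FPKM in vector cells and stood at 5.06 ± 0.36 and 5.65 ± 0.37 in GPD1 cells (interaction -1.14, SE 0.10). SEC24D rose 2.88-fold and 1.59-fold, and KDELR3, a receptor that returns chaperones such as BiP to the ER, rose 2.46-fold and 1.73-fold. SEC16A, which organises ER exit sites, fell 1.35-fold and 2.68-fold. With totals without mitochondrial genes the split of this list was 10 and 9 in vector cells and 4 and 9 in GPD1 cells, and the PERK list kept 8 rises in vector cells and 6 in GPD1 cells. Under that setting the rises and falls in vector and then GPD1 cells were 7 and 8, and 4 and 11, for the regulators, 4 and 16, and 0 and 17, for ERAD, 3 and 14, and 2 and 15, for the translocon, 5 and 20, and 5 and 18, for N-glycosylation, and 6 and 18, and 4 and 15, for the other folding enzymes. With median-ratio factors they were 10 and 5, and 9 and 3, for the regulators, 13 and 9, and 11 and 9, for ERAD, 11 and 5, and 12 and 5, for the translocon, 11 and 12, and 17 and 8, for N-glycosylation, 12 and 9, and 15 and 7, for the other folding enzymes, and 16 and 2, and 14 and 3, for ER to Golgi transport.

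**Figure D4:**
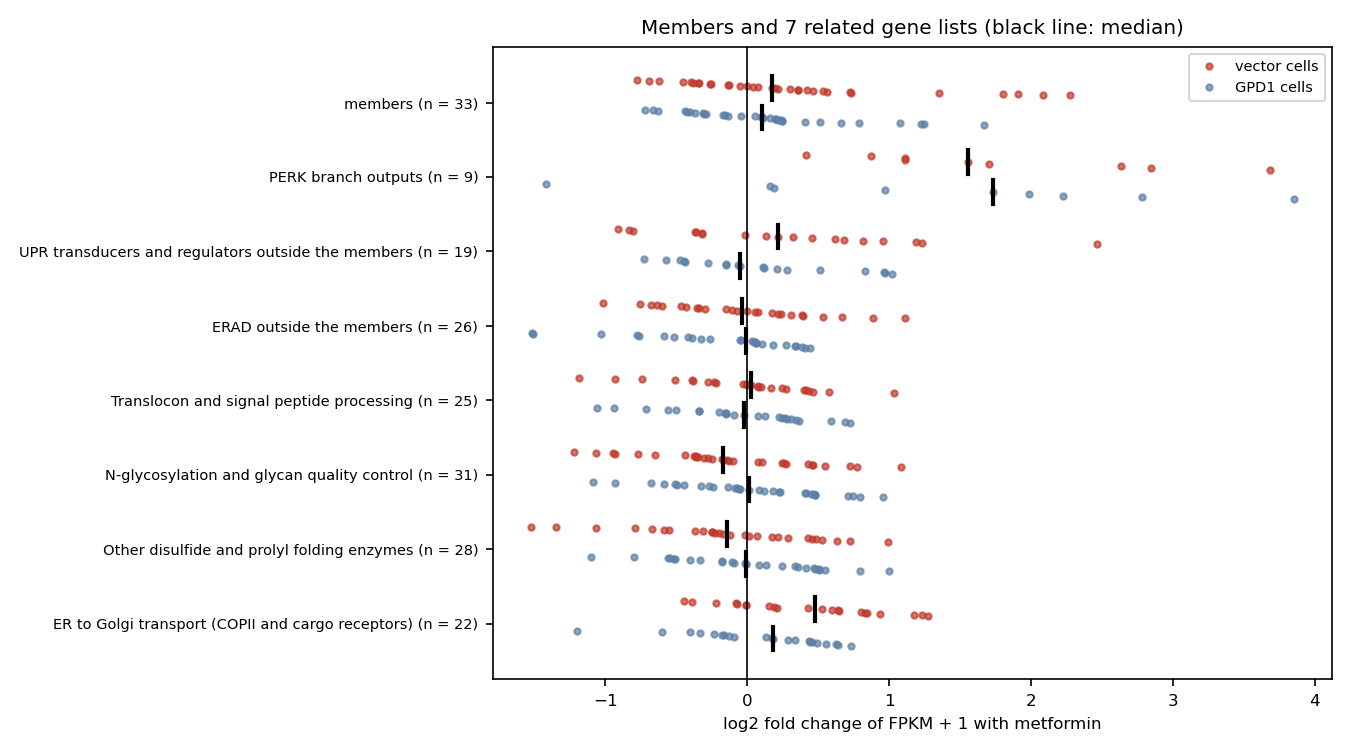
Log2 fold change of FPKM + 1 with metformin for each tested gene of the 34 and of 7 related lists, in vector cells (red) and GPD1 cells (blue), with the median of each as a black line. The PERK branch outputs lie furthest to the right, with medians of 1.55 and 1.73, and the ER to Golgi list has medians of 0.48 and 0.18. The medians do not compare the cell kinds gene by gene, and the interaction of the PERK outputs was positive for 2 and negative for 5.

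Exons of 19 of the 34 genes overlap exons of a gene on the other strand, and because the strand setting of the libraries is not stated, reads there cannot be told apart. The overlap is longest for DERL3 (2923 bases, with SMARCB1), PDIA3 (1410 bases), PDIA6 (1033), DNAJB11 (877) and EIF2AK3 (819), and it is 0 for HSPA5, ERN1, XBP1, HERPUD1 and MANF. On GRCh38, as the table gives them, HSPA5 lies at chr9:125234853-125241330, ERN1 at chr17:64039142-64130819, XBP1 at chr22:28794555-28800597, HERPUD1 at chr16:56932048-56944863, DNAJB9 at chr7:108569568-108574850, SYVN1 at chr11:65121780-65134533 and EIF2AK3 at chr2:88556741-88627576.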

How the data were processed

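Polyadenylated RNA of 12 A549 samples was sequenced. Reads were processed with CASAVA 1.8, HISAT2 2.1.0 and edgeR on GRCh38, per the submitters' processing notes. The authors deposited 1 table of normalized values, read here as FPKM from their steps, and what made these values is not given in the sources used here. Low values fell on whole steps within 0.02 reads for 64.6% to 69.5% of genes, too few to recover counts, so no count test was run. The steps correspond to 13.3 to 18.0 M reads per library, which sets the precision of low genes.

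Values were tested as log2(FPKM + 1) with limma 3.58.1 in R 4.3.3, with an intensity trend, 4 group means and Benjamini-Hochberg adjustment at 0.05, over the 12607 genes whose mean over all libraries reached 1 FPKM. The procedure was tested on simulated data. Alternatives were median-ratio and upper-quartile factors, totals without mitochondrial genes, no filter, a pseudocount of 0.1, only the groups compared, a replicate block, removal of a length trend (spline with 5 degrees of freedom, GENCODE 29 exon lengths) and each library left out. The 34 genes and the 7 related lists were chosen with earlier results of these data known. Per role, values by library go to the genes with the largest changes past the threshold, and up to 3 genes per related list and direction are named by size of change. P4HB, TXNDC5, CANX and HSP90B1 were given by library after their values were seen. Promoter windows are those of RefSeq (GRCh38.p14), found for 31 of the 34. Protein sequences and the 786-O samples were not used here.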

Additional observations from a re-analysis of the deposited data

Results flagged for a closer look

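For 16 of the 33 tested genes the metformin change differed between GPD1 and vector cells by limma's interaction term (adjusted p under 0.05), against 45.9% of all tested genes. Values are the log2 change in GPD1 cells minus that in vector cells. The interaction was -1.15 for SYVN1, -1.01 for HSPA5, -0.96 for EIF2AK3, -0.77 for MANF, -0.69 for XBP1, -0.66 for EDEM1, -0.61 for DNAJB9, -0.59 for SDF2L1, -0.56 for ERN1, -0.56 for HERPUD1, -0.46 for ERO1A and -0.29 for DNAJC3. It was 0.45 for HYOU1, 0.48 for PDIA3, 0.56 for ATF6 and 0.70 for EDEM2. Of these calls, that of XBP1 was lost in 9 of 19 alternatives, that of HYOU1 in 3 and that of DNAJC3 in 2.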

How the results depend on the processing

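Of 3267 recomputed values for single genes and comparisons, 3090 stayed on the same side of the threshold, among them 59 that changed sign while passing in neither fit. A further 84 no longer passed, 75 passed newly and 18 reversed. Reversed means that the sign changed and that at least 1 of the 2 fits passed. Among the 18 only PDIA6, in vector and in GPD1 cells, passed with both signs. Scaling moved the counts most. With totals without mitochondrial genes, 9 genes were higher and 16 lower with metformin in vector cells (16 and 9 as reported), and 7 were higher in GPD1 cells (13). The log2 change then reversed in vector cells for HSP90B1 (-0.28), DNAJB11 (-0.12), SDF2L1 (-0.12), PDIA6 (-0.18) and DERL1 (-0.26), and in GPD1 cells for HSP90B1 (-0.12), HYOU1 (-0.26), DNAJB11 (-0.12), DNAJC3 (-0.0761), PDIA3 (-0.27), PDIA6 (-0.15), ERO1B (-0.21) and EDEM2 (-0.12). This setting lowers all metformin changes by construction. With median-ratio factors 5 genes were lower with metformin in GPD1 cells (12), 16 were higher in GPD1 than vector cells under metformin (10), and 11 had a positive interaction (4). With upper-quartile factors the last counts were 17 and 13. DNAJC10 and ATF6 reversed in GPD1 cells, to 0.0527 and 0.0904 with median-ratio factors and to 0.0279 and 0.032 with the length trend removed. The cause was not tested. Leaving out 1 library moved the number of genes higher in untreated GPD1 cells from 5 to between 2 and 7, and CANX in vector cells ranged from -0.17 to 0.28, the latter without vector metformin replicate 1. The replicate numbers did not pair the samples (correlation of same-numbered deviations -0.065 to 0.056 over 18 pairs). With a replicate block the higher and lower counts were 16 and 9, 13 and 11, 6 and 2, 10 and 11, and 4 and 12 in the order of the report. Depth limits DERL3, at 0 to 1 read.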
